A study of Mus musculus with 9 samples.

Results

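The genes described here are 10 genes of the ovarian follicle and corpus luteum, followed in RNA of the oviduct as markers of ovarian tissue that could be carried along with it: the hormone genes Inha, Inhba and Amh, the receptor genes Fshr and Lhcgr, the steroid genes Star, Cyp11a1, Cyp17a1 and Cyp19a1, and Akr1c18. They were named by symbol, and 8 of the 10 had a probe set, each exactly 1, among the 19937 genes that could be named on the array. Lhcgr and Cyp19a1 had no probe set under their symbols in the annotation used and were not analysed here. The study measured whole oviduct of CD1 female mice, all without hormone treatment, on 9 arrays of pooled tissue from 5 animals each. Sexually immature females of day 21, titled as controls, gave 3 arrays, sexually mature females in estrus gave 3, and sexually mature females in diestrus gave 3. The age of the mature females, any genetic alteration and how the oviduct was separated from the ovary are not stated in the sources used here. Values are log2 intensities after robust multi-array averaging (RMA), so a difference of 1 is a doubling of the signal, and the median of all 28214 probe sets lay between 8.85 and 8.90 on each array.

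In the ovary, granulosa cells surround the oocyte and make inhibins, activins and anti-Müllerian hormone under control of follicle-stimulating hormone. Theca cells outside them respond to luteinizing hormone and make androgens, which granulosa cells turn into estrogen. After ovulation the follicle becomes a corpus luteum, which makes progesterone from cholesterol until it regresses. In the mouse the ovary lies in a bursa that is continuous with the oviduct, and the oviduct itself is a target of these hormones.

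Promoter sequences from RefSeq (GRCm38.p6) were at hand for 5 of the 8 measured genes. They are shown for the 3 of these whose highest array stood more than 2 log2 units above the median of the others: Inha, Cyp11a1, which has 2 listed starts, and Akr1c18. Each run is the 250 bases before the start, 5′ to 3′ on the strand of the gene. Capitals mark AGGTCA, the half-site of nuclear receptors such as the steroidogenic regulator encoded by Nr5a1, and TGACG, part of the cAMP response element, on either strand (TGACCT and CGTCA on the opposite strand).
Inha, chr1:75507359-75507608, plus strand: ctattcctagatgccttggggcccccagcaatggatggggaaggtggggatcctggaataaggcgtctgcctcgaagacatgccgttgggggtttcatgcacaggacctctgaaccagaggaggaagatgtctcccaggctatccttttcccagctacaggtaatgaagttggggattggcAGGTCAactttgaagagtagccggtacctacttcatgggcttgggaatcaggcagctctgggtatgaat
Cyp11a1, first start, chr9:57997774-57998023, plus strand: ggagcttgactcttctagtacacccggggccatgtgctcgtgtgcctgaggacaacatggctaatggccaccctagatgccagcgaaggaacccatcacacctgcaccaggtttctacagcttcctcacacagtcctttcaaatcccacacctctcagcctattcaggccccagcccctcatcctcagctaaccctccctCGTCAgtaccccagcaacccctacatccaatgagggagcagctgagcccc
Cyp11a1, second start, chr9:58014702-58014951, plus strand: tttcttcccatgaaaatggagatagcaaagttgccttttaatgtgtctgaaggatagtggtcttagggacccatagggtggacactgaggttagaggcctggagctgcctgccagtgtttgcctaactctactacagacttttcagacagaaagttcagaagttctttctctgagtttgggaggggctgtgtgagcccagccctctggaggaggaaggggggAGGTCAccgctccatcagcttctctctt
Akr1c18, chr13:4150647-4150896, minus strand: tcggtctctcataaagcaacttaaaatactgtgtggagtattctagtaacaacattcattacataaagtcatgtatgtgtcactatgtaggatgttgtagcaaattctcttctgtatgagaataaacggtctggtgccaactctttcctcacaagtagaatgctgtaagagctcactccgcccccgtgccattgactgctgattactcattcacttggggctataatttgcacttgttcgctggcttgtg
The Inha window held 1 AGGTCA, 69 to 64 bases before the start. At the second start of Cyp11a1 an AGGTCA lay 28 to 23 bases before it, and at the first a TGACG on the opposite strand lay 50 to 46 bases before it. Neither motif was found in this window of Akr1c18. Among all 32851 windows of this length, 14.0% held AGGTCA and 17.8% held TGACG, and the motifs do not overlap each other in the windows shown. A match describes the letters and was not tested as a binding site.

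The ovarian genes differed more between pools of the same group than most other features of the arrays. The SD within groups was 1.31 for Akr1c18, 1.26 for Cyp17a1, 1.11 for Inha, 0.76 for Cyp11a1 and 0.64 for Inhba, against a median of 0.0957 over all probe sets. Of the 28214 probe sets, 2 varied more within groups than Akr1c18, 3 more than Cyp17a1 and 7 more than Inha. For Amh, Star and Fshr the values were 0.26, 0.20 and 0.17, above 96.6%, 93.4% and 87.4% of probe sets. The pools immature 2, diestrus 2 and diestrus 3 carried the high values, and they did not carry the same genes. In pooled tissue, more cells of a type and more RNA per cell cannot be told apart.

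**Figure D1:**
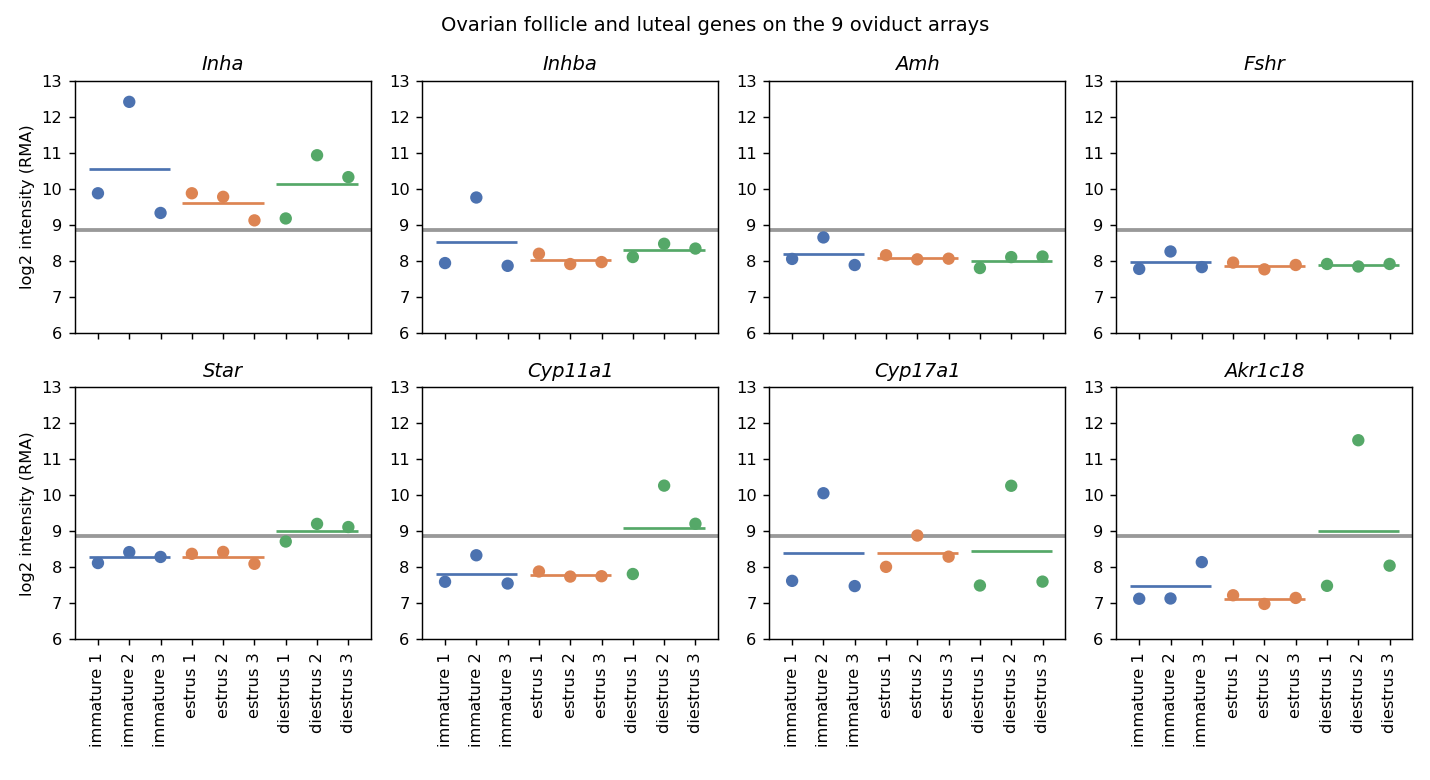
Log2 RMA intensity (vertical axis) of 8 ovarian genes on each of the 9 arrays (horizontal axis; blue immature, orange estrus, green diestrus). Coloured lines are group means and the grey band spans the array medians of 8.85 to 8.90. Inha and Inhba stand highest on immature 2, Cyp11a1 and Akr1c18 on diestrus 2, and Cyp17a1 on both of these.

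The inhibin and activin subunits were highest on a pool of immature females. Inha, the alpha subunit found only in inhibins, stood at 9.88, 12.42 and 9.34 on immature 1, 2 and 3, at 9.88, 9.78 and 9.13 on estrus 1, 2 and 3, and at 9.18, 10.94 and 10.33 on diestrus 1, 2 and 3. Immature 2 lay 2.59 above the median of the other 8 arrays, 6.02-fold in intensity, while its 2 companions lay within the range of the estrus arrays or, for immature 1, at its upper end. Diestrus 2 and 3 came next, 1.48 and more below immature 2, and the 3 groups overlapped. Inha was above the array median on all 9 arrays. Inhba, the beta A subunit shared by inhibin A and activin A, read 7.94, 9.76 and 7.87 in the immature pools, 8.20, 7.92 and 7.97 in estrus, and 8.11, 8.48 and 8.35 in diestrus. It was thus 1.72 above the median of the others on immature 2 and below the array median on the remaining 8, where its signal may be background. Here too diestrus 2 was second, and the other 7 arrays lay between 7.87 and 8.35.

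Amh, which granulosa cells of small growing follicles make, shared the peak on immature 2 on a smaller scale. Its next array was estrus 1, not diestrus 2. Its values were 8.06, 8.66 and 7.89 on the immature arrays, 8.16, 8.05 and 8.07 in estrus, and 7.81, 8.11 and 8.13 in diestrus. Immature 2 was again highest, 0.59 above the median of the others. Fshr, the receptor through which follicle-stimulating hormone acts on granulosa cells, stood at 7.78, 8.27 and 7.83 in the immature pools, 7.96, 7.77 and 7.89 in estrus, and 7.92, 7.85 and 7.92 in diestrus. Immature 2 was 0.40 above the median of the rest, which spanned only 7.77 to 7.96. Both genes lay below the array median on all 9 arrays, where signal above background was not established. The 4 genes of granulosa cell function among the members were thus all highest on the same array.

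The steroid genes were spread over other pools. Cyp17a1, the androgen-synthesis enzyme of theca cells, read 7.63, 10.06 and 7.48 in the immature group, 8.02, 8.89 and 8.30 in estrus, and 7.50, 10.27 and 7.61 in diestrus. Diestrus 2 and immature 2 were 0.21 apart, and estrus 2 was the third. Estrus 2 alone of the other 7 reached the median of its array, and on the 6 arrays below it the signal may be background. Cyp11a1, the mitochondrial enzyme that cuts the cholesterol side chain and starts steroid synthesis, stood at 7.60, 8.34 and 7.55 on the immature arrays, 7.89, 7.75 and 7.76 in estrus, and 7.82, 10.27 and 9.21 in diestrus. It was high on diestrus 2 and 3 and, to a lesser degree, on immature 2, while diestrus 1 lay among the estrus values. It was above the array median on diestrus 2 and 3 only. Diestrus 2 exceeded the median of the others by 2.49, 5.60-fold in intensity. On diestrus 3, Cyp11a1 was 1.40 above the median of the 9 arrays while Cyp17a1, at 7.61, was among the lowest.

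Akr1c18, the enzyme that inactivates progesterone in the regressing corpus luteum, gave the largest deviation of a single pool. It stood at 7.13, 7.14 and 8.15 on the immature arrays, 7.23, 6.99 and 7.15 in estrus, and 7.49, 11.53 and 8.05 in diestrus. Diestrus 2 was 4.34 above the median of the other 8 arrays, a 20.3-fold difference in intensity, and 3.39 above immature 3, the next. On all arrays but diestrus 2 it lay below the array median, where its signal may be background. On immature 2, where Inha and Cyp17a1 were high, Akr1c18 was at 7.14, among the low values.

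Star was highest on diestrus 2 and then on diestrus 3, as Cyp11a1 was, and unlike Cyp11a1 it was next highest on diestrus 1. It encodes the protein that moves cholesterol into mitochondria for steroid synthesis, and it stood at 8.12, 8.43 and 8.29 in the immature pools, 8.38, 8.43 and 8.10 in estrus, and 8.72, 9.21 and 9.12 in diestrus. All 3 diestrus arrays lay above all 6 others, diestrus 1 included. On diestrus 1 Inha and Cyp17a1, at 9.18 and 7.50, were each next to lowest. Cyp11a1 and Akr1c18 read 7.82 and 7.49 there, against 10.27 and 11.53 on diestrus 2. On the 7 arrays other than diestrus 2 and 3 Star lay below the array median. Star on immature 2, at 8.43, did not exceed estrus 2.

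The comparisons between groups asked whether any of these genes changed with sexual maturity or with the stage of the cycle. The first 2 comparisons share the 3 immature arrays and the last shares arrays with both. In estrus against immature oviduct none of the 8 genes passed the test (limma, adjusted p under 0.05 by Benjamini-Hochberg across the 28214 probe sets), where 0.0851% of probe sets did, and none had an unadjusted p under 0.05, against 6.52% of probe sets. Differences ran from -0.95 ± 0.72 (SE) for Inha to 0.02 ± 0.14 for Star, with adjusted p of at least 0.855. Inha stood at 9.60 ± 0.41 (SD, n = 3) in estrus and 10.55 ± 1.65 in the immature group, so the difference was smaller than the spread of the immature pools. Without immature 2 it was -0.01.

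Star rose in diestrus against immature oviduct. The immature pools averaged 8.28 ± 0.15 (SD, n = 3) and the diestrus pools 9.02 ± 0.26. The difference was 0.74 on the log2 scale, with an SE of 0.14 and an adjusted p of 0.0463 in limma. Star was the only one of the 8 genes to pass, where 1.00% of all probe sets passed and 0.294% passed as higher. Leaving out any single array other than diestrus 1 ended the call, with differences of 0.64 to 0.81 and adjusted p of 0.0542 (without estrus 3) to 0.157 (without diestrus 2). Without diestrus 1 the difference was 0.89 (adjusted p = 0.0293). The call was also lost after quantile normalization, median centring or cyclic loess (adjusted p = 0.0668, 0.0507 and 0.0678). Without immature 2 and diestrus 2, the pools with the highest ovarian values, Star differed by 0.71 (adjusted p = 0.28). Cyp11a1 differed by 1.27 ± 0.49 (adjusted p = 0.298) and Akr1c18 by 1.55 ± 0.85 (adjusted p = 0.485). The SD of the diestrus pools was 1.23 for Cyp11a1 and 2.19 for Akr1c18, so both differences were of the size of that spread or below it. Without diestrus 2 the difference was 0.68 for Cyp11a1 and 0.30 for Akr1c18. The other differences lay between -0.40 ± 0.72 for Inha and 0.07 ± 0.81 for Cyp17a1 (adjusted p of at least 0.706), and that for Inha turned to 0.54 without immature 2.

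In diestrus against estrus Akr1c18, Cyp11a1 and Star again had the largest differences. Star differed by 0.71 ± 0.14 (adjusted p = 0.091), Cyp11a1 by 1.30 ± 0.49 (adjusted p = 0.415) and Akr1c18 by 1.90 ± 0.85 (adjusted p = 0.536). None of the 8 passed, where 0.159% of probe sets did, although these 3 had unadjusted p under 0.05, against 9.33% of probe sets. The arrays of the 2 stages did not overlap for Star and for Akr1c18, which held for 11.8% of all probe sets. For diestrus and immature arrays Star alone did not overlap, against 18.4%, and for estrus and immature arrays no member was without overlap, against 9.80%. With weights fitted to each array, Star, Cyp11a1 and Akr1c18 passed in this comparison (adjusted p = 0.00193, 0.0407 and 0.0458), in a fit that called 11.8% of all probe sets. A miss of the threshold does not show equal levels: the 95% interval of diestrus minus estrus ran from -1.77 to 1.88 for Cyp17a1 and from -1.05 to 2.16 for Inha, but only from -0.24 to 0.28 for Fshr.

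**Figure D2:**
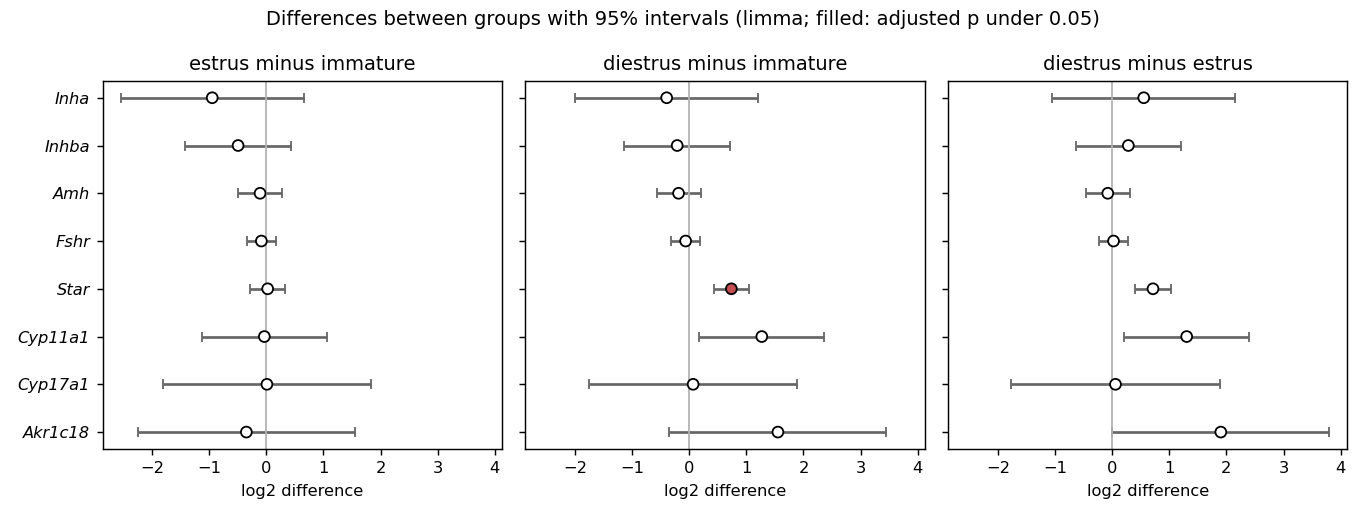
Log2 difference (horizontal axis) of each of 8 ovarian genes (vertical axis) in 3 comparisons, with 95% intervals from the limma fit. The filled point marks an adjusted p under 0.05: Star, diestrus minus immature, at 0.74. The intervals of Inha, Cyp17a1 and Akr1c18 are wider than those of Amh, Fshr and Star.

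Genes of the same ovarian cell types were then followed on each array, from lists written from general knowledge with the earlier results in view. Immature 2 was the most frequent highest array of granulosa cell and oocyte genes. Only 5 of 21 and 2 of 22 stood at least 1 log2 unit above their median there, and Cyp17a1 of theca cells was high too. Of 21 measured granulosa genes immature 2 held the highest of the 9 values for 16, where it did so for 8.80% of all genes. Of these 16, 12 were not among the 8 genes above. Hsd17b1, the granulosa enzyme that makes estradiol from estrone, stood at 9.39 there against 8.06 to 8.55 elsewhere. Nr5a2, a nuclear receptor needed for ovulation, reached 8.91, but estrus 2 and estrus 1 followed at 8.66 and 8.29. Slc18a2, a vesicular monoamine transporter placed on this list, stood at 9.44 and at most 8.47 elsewhere, and the estrogen receptor beta gene Esr2 at 8.95 and at most 8.38. For the other 8 non-members highest there, the distance to the median of the other arrays was 0.12 (Kitl) to 0.525 (Gja1). Inhbb, the beta B subunit, was highest on diestrus 3 (10.32) and second on immature 2 (9.98).

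Oocyte genes pointed to the same pool with smaller differences. Of 22 measured, 13 were highest on immature 2. Zp2, which encodes a protein of the zona pellucida, stood at 8.92, followed by 8.29 on immature 1 and at most 7.90 on the remaining arrays. Nlrp5, a maternal-effect gene of the oocyte, showed the same order with 8.76, 8.33 and at most 7.91. Zp1 reached 9.02, Zp3 8.75, Padi6 9.20 and Bmp15 8.97 on immature 2. Most of these values lay near the array median. Zp3 and Nlrp5 were below it on all 9 arrays, and Zp1, Zp2, Padi6 and Bmp15 on all but immature 2. There the signal may be background. Ddx4, Dazl and Npm2 of the list varied by little over the arrays, within 6.26 to 6.50, 6.72 to 6.98 and 6.80 to 7.14. Ovulated eggs with their cumulus cells can lie in the oviduct around estrus. Of the 22 oocyte genes 4, 1 and 1 were highest on estrus 1, 2 and 3, which were highest for 22.6%, 12.5% and 5.36% of all genes. Of 11 measured genes of the expanding cumulus, 3, 2 and 2 were highest on these arrays, 3 on diestrus 3 and 1 on immature 2. Ptgs2 stood at 10.79 on estrus 2 and 10.61 on estrus 3 and was lowest, at 9.19, on diestrus 3. Vcan and Adamts1, a matrix proteoglycan gene and a protease gene, were highest on diestrus 3, at 10.25 and 9.71. Has2, Ptx3 and Tnfaip6 lay within 7.09 to 7.43, 7.45 to 7.70 and 7.47 to 7.99, below the array median on all 9 arrays.

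Theca and interstitial genes were highest on diestrus 2 in 9 of 12 cases, against 8.11% of all genes. Of these 9, 6 were not among the 8 genes above. Only 3 of the 12 stood at least 1 log2 unit above their median there, and of the 9 non-members only Hsd3b1 did. Fdx1, Ephx1, Mgarp, Ptch1 and Fads1 led the next array by just 0.04 (Mgarp) to 0.22 (Fdx1). Hsd3b1, which converts pregnenolone to progesterone and belongs to a family of similar enzymes, was 8.99 on diestrus 2, 8.72 on immature 2 and 8.51 on diestrus 3, and at most 6.96 on the other 6. These 3 pools thus stood apart from the other 6 for this gene. It lay below the array median on 8 arrays, immature 2 and diestrus 3 among them, and above it on diestrus 2 only. Fdx1, the electron donor of Cyp11a1, was also highest on diestrus 2, at 8.88 against 8.56 to 8.66. Of 17 luteal genes 5 were highest on immature 2, 5 on diestrus 2 and 2 on diestrus 3. For the 13 of them not among the 8 genes above, the counts on these arrays were 4, 2 and 2. These arrays were highest for 8.80%, 8.11% and 10.8% of all genes, so the count on diestrus 3 was near its share. Luteal genes went both ways on diestrus 3, where Pgf and Parm1 were lowest, at 8.41 and 10.43. Timp1, an inhibitor of matrix proteases, read 9.82 (diestrus 3) and 9.69 (diestrus 2) where no other array exceeded 9.06, and Sfrp4, a secreted Wnt antagonist, 10.38 and 10.30 where none exceeded 10.08. Ptgfr, the receptor through which prostaglandin F2alpha brings on luteal regression, was not highest on either and ranged from 8.67 to 9.14.

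**Figure D3:**
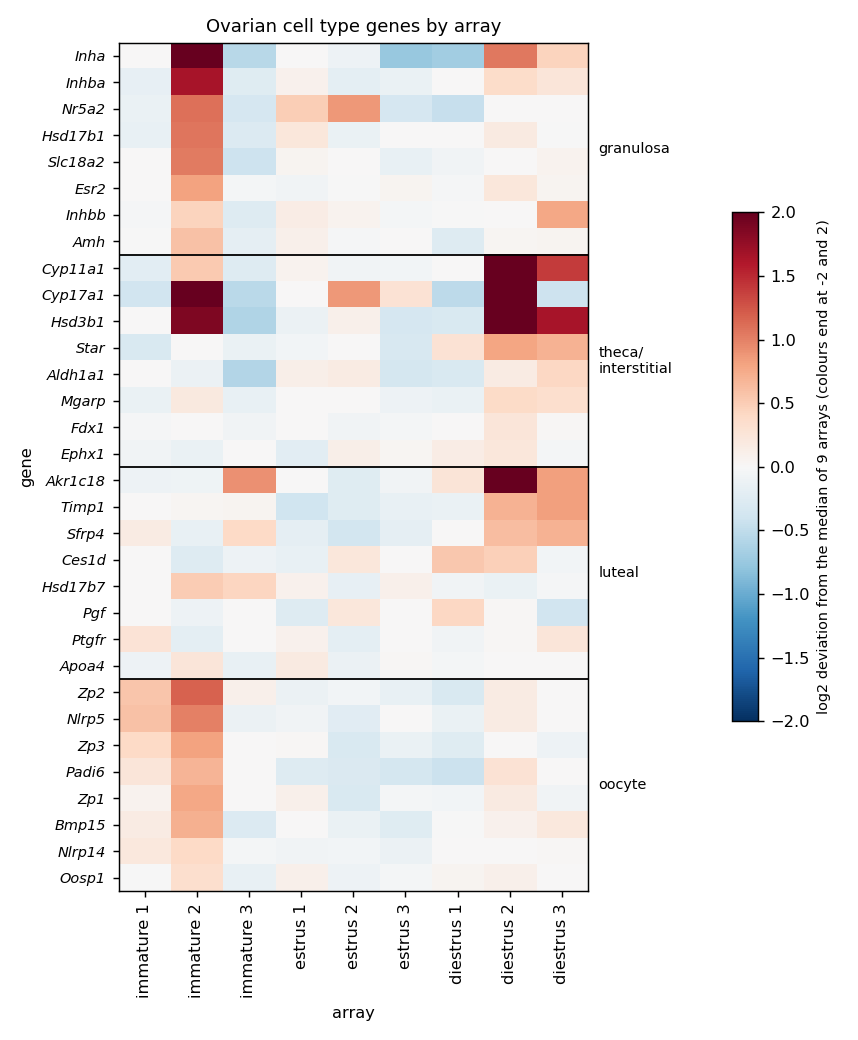
Deviation of each gene (rows) from its median over the 9 arrays (columns), in log2 units shown as colour, for up to 8 genes of each of 4 lists with the largest distance between the highest array and the median of the others. A gene on several lists is shown in the first. The granulosa and oocyte genes shown are highest on immature 2, except Inhbb, which is highest on diestrus 3. Nr5a2 is also high on estrus 2. Akr1c18 is high on diestrus 2 and Cyp11a1 on diestrus 2 and 3. Cyp17a1 is high on immature 2 and diestrus 2, and Hsd3b1 on immature 2, diestrus 2 and diestrus 3.

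Deviations of this size were rare among all genes. At least 1 log2 unit above its median over the arrays were 14 of 19937 genes on immature 2 (0.0702%), and 9 of these 14 were on the granulosa, theca, luteal or oocyte lists: Inha, Inhba, Cyp17a1, Hsd3b1, Nr5a2, Hsd17b1, Slc18a2, Zp2 and Nlrp5. On diestrus 2 there were 18 (0.0903%), with 5 on these lists: Akr1c18, Cyp11a1, Cyp17a1, Hsd3b1 and Inha. On diestrus 3 there were 58 (0.291%), with 2, Hsd3b1 and Cyp11a1. No gene of these 4 lists reached a distance of 1 on the other 6 arrays, where 0.0351%, 0.0251%, 0.00502%, 0.0401%, 0.00502% and 0.0251% of all genes did (immature 1 and 3, estrus 1, 2 and 3, diestrus 1). At a distance of 0.5 the shares of all genes were 0.507%, 0.522% and 1.74% on immature 2, diestrus 2 and diestrus 3. At that distance some list genes were also high elsewhere: 2 oocyte genes on immature 1, 1 luteal gene each on immature 3 and diestrus 1, and 1 granulosa and 1 theca gene on estrus 2. As the lists and the arrays were known from earlier results, these counts describe the pools and are no test.

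Other tissues moved with some of these arrays. On diestrus 3 all 10 smooth muscle genes were highest of the 9 arrays, with a mean log2 level of 11.77, against 11.07 on the lowest diestrus array, 11.04 to 11.15 in estrus and 10.97 to 11.19 in the immature group. Of 10 posterior Hox and uterine genes 5 were also highest there, as were 10.8% of all genes, among them Hoxd10 at 10.21. Fat cell genes, 9 measured, had a mean of 8.87 to 9.49 in the immature group, 8.71 to 8.81 in estrus and 8.59 to 8.94 in diestrus. Their mean was highest on immature 1 (9.49) and second on immature 2 (9.21), where 3 of the 9 were at least 0.5 above their median and Car3 stood at 11.31. The part of fat in the values of immature 2, and of muscle and uterine tissue in those of Cyp11a1 and Star on diestrus 3, was not tested. Adrenal cortex is another steroid-making tissue. Of the genes that define it, Cyp21a1 lay within 7.19 to 7.51, Cyp11b1 within 7.27 to 7.56 and Cyp11b2 within 7.86 to 8.15. Each was highest on estrus 1, as were 5 of the 7 measured genes of the adrenal list and 22.6% of all genes. Hsd3b1 and Nr5a1, which are on the adrenal and the theca list, were highest on diestrus 2 (8.99) and immature 2 (8.70). The 14 epithelial genes of the oviduct had means of 11.74 to 11.94 in the immature group, 11.70 to 11.81 in estrus and 11.68 to 11.86 in diestrus, so the labelled tissue was evident on every array. Markers of the mesothelium that covers ovary, bursa and oviduct, 10 measured, had means of 10.39 (diestrus 3) to 10.75 (diestrus 2), and 4 of the 10 were highest on diestrus 2 and 4 on immature 1 (mean 10.71), where 8.11% and 8.96% of all genes were. Their part in the high values of diestrus 2 was not tested.

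Few of the remaining genes of the pathways passed the test, as few of all probe sets did (0.0851%, 1.00% and 0.159% in the 3 comparisons), and such counts do not show equal levels. Of 23 measured genes of steroid synthesis, Star rose in diestrus against immature oviduct and none fell. No other passed in any of the 3 comparisons. The list medians were -0.035, -0.01 and 0.04 for estrus minus immature, diestrus minus immature and diestrus minus estrus, beside 0.011, 0.009 and -0.006 over all probe sets. Akr1c14, a hydroxysteroid dehydrogenase, differed by -0.82 ± 0.21 and -0.99 ± 0.21 in the last 2 comparisons (adjusted p = 0.124 and 0.132). Srd5a3, a steroid reductase family gene, differed by -0.34 ± 0.06 in estrus minus immature and by -0.30 ± 0.06 in diestrus minus immature (adjusted p = 0.11 and 0.0602). Hsd3b1 differed by 1.28 ± 0.685 in diestrus minus estrus (adjusted p = 0.652). Nr5a1, the regulator of steroidogenic genes, kept within 8.39 to 8.70, highest on immature 2. None of 19 genes of inhibin, activin and anti-Müllerian hormone signalling passed in any comparison, and the activin receptor genes Acvr2a and Acvr2b ranged over 9.95 to 10.17 and 9.05 to 9.18. Among 13 genes of gonadotrophin signalling none passed. Rgs2, a regulator of G protein signalling, differed by 0.67 ± 0.17 in diestrus minus immature and by 0.92 ± 0.17 in diestrus minus estrus (adjusted p = 0.119 and 0.0814). Prkar2b, a regulatory subunit of protein kinase A, stood at 10.72 on immature 2 against 9.45 to 10.07 elsewhere. In the cumulus list, Ptgs2, which encodes the inducible cyclooxygenase, fell by 0.84 ± 0.16 in diestrus against immature and by 1.14 ± 0.16 against estrus (adjusted p = 0.0463 and 0.0281). It was the only non-member on the 14 lists to pass.

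Genes with the most similar profiles over the 9 arrays were sought among genes with a range of at least 1 log2 unit. Pearson's r is given as a measure of likeness over 9 arrays, most of which are low for both genes, so that 1 or 2 arrays set it. For Inha the closest were Thbs1, which encodes the matrix protein thrombospondin 1 (r = 0.98, and 0.96 without immature 2), Inhba (0.93 and 0.79), Akr1cl, an aldo-keto reductase gene (0.91 and 0.92), Slc18a2 (0.89 and 0.57) and Elobl (0.89 and 0.67). Thbs1 followed Inha over the low arrays too: it stood at 11.03 on immature 2, 10.61 on diestrus 2 and 10.53 on diestrus 3, and at 9.98 to 10.31 elsewhere. Akr1cl rose on the same pools, with 9.62, 9.38 and 8.90 against 6.93 to 7.73. Inhba was closest to Serpina3a, a serine protease inhibitor gene (0.98, and 0.80 without immature 2), and to Hsd17b1 (0.97 and 0.78).

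For Cyp17a1 no gene came as close. Inha was first with r = 0.76, followed by Akr1cl (0.76), Hsd3b1 (0.71), Thbs1 (0.68) and Inhba (0.67). Cyp11a1 was most like Ephx2, the soluble epoxide hydrolase gene (0.91, and 0.82 without diestrus 2), Ifit3 (0.90 and 0.79), Star (0.88 and 0.82) and Hsd3b1 (0.86 and 0.85). Akr1c18 was most like Alb, the albumin gene, with 0.96, which became 0.23 without diestrus 2. Alb stood at 9.32 on that array and at 7.42 to 7.68 on the other 8. Nnat, an imprinted gene (0.89), and Cd7 (0.82) likewise came to 0.17 and 0.07 without it. Of the 5 most alike genes, Cyp11a1 went from 0.85 to 0.37, while Ifit3, an interferon-induced gene, went from 0.82 to 0.72.

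Star was among the 5 genes most like Cyp11a1, but Cyp11a1 was not among the 5 most like Star. The closest gene to Star was Abca1, the cholesterol efflux transporter (0.96, and 0.95 without diestrus 2). Dpep1 (0.92), Glb1l2 (0.91), Glb1l3 (0.90) and the gastric lipase gene Lipf (0.89) followed. These 5 were taken for Star after its values were seen, as Star lay 0.81 and not 1 above the median of the other arrays. Abca1 stood at 10.31, 10.52 and 10.43 on diestrus 1, 2 and 3 and at 9.24 to 9.74 on the other 6. Lipf stood at 12.43, 11.88 and 12.13 there, and at 7.87 to 8.93 elsewhere. Both were high on all 3 diestrus pools, diestrus 1 included, as Star was. They were chosen for their likeness to Star over these same arrays, so the shared pattern was built in and is no test.

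**Figure D4:**
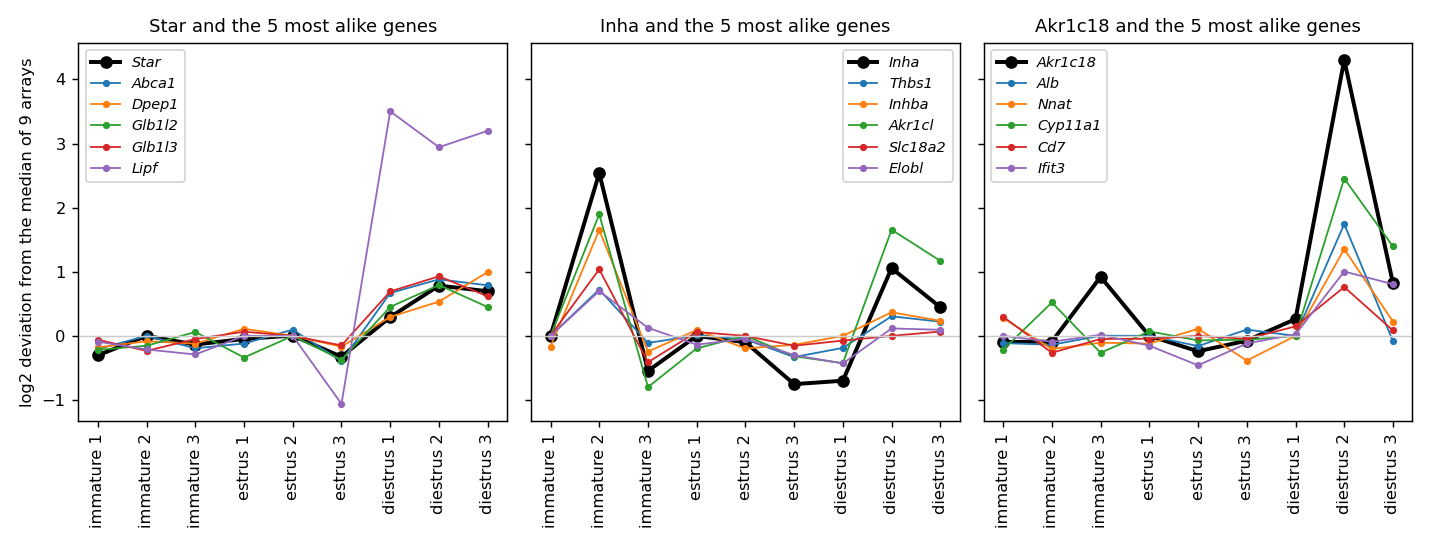
Deviation from the median of the 9 arrays (vertical axis, log2 units) of Star, Inha and Akr1c18 (black) and of the 5 genes most alike to each (colours) on the 9 arrays (horizontal axis). The Star group is high on all 3 diestrus arrays, the Inha group on immature 2 and less so on diestrus 2 and 3, and the Akr1c18 group on diestrus 2, with Cyp11a1 and Ifit3 also high on diestrus 3.

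Among the 10 genes with the largest lead of a single array over all others, immature 2 had Serpina3a (1.56), Inha (1.48), Inhba (1.28), Slc18a2, Hsd17b1, Thbs4, Irf9, Dynap, Nap1l5 and Prkar2b (0.97 to 0.65). Diestrus 2 had Akr1c18 (3.39), Alb (1.65), Nnat (1.08), Cyp11a1 (1.06), Klk1b1, Car9, Alox12e, Lyz1, Chad and Mup3 (0.63 to 0.46). On diestrus 3, where no member was highest, the leaders were Prap1 (2.16), Sprr2f (1.95), Clca1 (1.87), Dio2, Col6a4, A2m, Plac8, Rxfp2, Spink12 and Rxfp1 (1.59 to 1.28), with no gene of the 4 ovarian lists among them.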

How the data were processed

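RNA of whole oviduct from 9 pools of 5 CD1 females each was measured on Affymetrix arrays, in 3 groups of 3. RMA in Affymetrix Expression Console gave the log2 values that the authors deposited, per the submitters' processing notes; their versions are not stated in the sources used here, and the log base was judged from the range of the values. Quantile normalization within RMA forces equal distributions on the arrays, and low values are raised by background signal, so folds of low genes are understated. The number of arrays limits the precision. Nothing says that pools came from separate cohorts, so p-values measure the spread between these pools.

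All 28214 probe sets were kept: 21640 had 1 gene symbol in the platform annotation, 1321 several and 5253 none. Where a gene had several probe sets, the brightest on average was used for it. A single limma model (3.58.1, R 4.3.3; lmFit and eBayes, two-sided; 6 residual and 3.60 prior degrees of freedom) held the 3 groups, with Benjamini-Hochberg adjustment over all probe sets. On simulated data the fit was checked for recovery of known changes. Profiles and lists were summarised with pandas 2.3.3 in Python 3.11.15 and drawn with matplotlib 3.10.9. Arrays were not treated as paired by replicate number. Deviations of same-numbered arrays correlated at -0.29 to 0.17, but differently numbered arrays were not compared, so this does not settle whether they were paired.

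The text names all measured members, called list genes, up to 6 genes of a list by distance of the highest array, the 5 most alike genes of members at least 1 above the other arrays, and the 10 leaders of an array. Other list genes named beside these were chosen after their values were seen. Members, lists, and the arrays left out together were chosen with earlier results of these data known. Alternatives were other normalizations, filters, variance models, array weights, a replicate block and left-out arrays.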

Additional observations from a re-analysis of the deposited data

How the results depend on the processing

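The distance of the highest array from the median of the others moved by less than the SD of the other 8 arrays in all 96 alternatives over the 8 genes. With 1 array at a time left out it was 2.54 to 2.64 for Inha, 1.65 to 1.79 for Inhba, 0.59 to 0.60 for Amh, 0.38 to 0.42 for Fshr, 0.78 to 0.83 for Star, 2.46 to 2.52 for Cyp11a1, 2.25 to 2.64 for Cyp17a1 and 4.31 to 4.38 for Akr1c18. At a limit of 0.5 log2 units in place of 1, luteal genes above it numbered 4, 6 and 6 on immature 2, diestrus 2 and diestrus 3 (2, 3 and 2 at the limit of 1), oocyte genes on immature 2 numbered 6 (2), and granulosa genes on diestrus 3 numbered 1 (0).

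The count of members called in diestrus minus immature, 1, became 0 with the filter on intensity, which kept 1 of the 8 genes, with quantile normalization, median centring, cyclic loess, only 6 arrays, an adjusted p under 0.01, and without immature 2 and diestrus 2, with or without diestrus 3. With 1 array left out it was 0 to 1. In diestrus minus estrus the count of 0 became 3 with array weights, and in estrus minus immature it was 0 in every alternative. The causes were not tested. With the replicate number as a block Star kept its call (adjusted p = 0.0499) and no other member was called, while probe sets called in diestrus minus immature fell from 282 to 121, and in the other comparisons from 24 to 4 and from 45 to 13. Whether the numbers pair the arrays was not settled, so this is no measure of effect.

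Of 483 alternative differences over 24 gene comparisons, 48 changed sign, none of them in a called value. Estrus minus immature turned to -0.006, -0.003 and -0.15 for Star and to -0.047, -0.02 and -0.14 for Cyp17a1 with quantile normalization, cyclic loess and array weights. Diestrus minus estrus of Fshr turned to -0.011 with weights. The other changes of sign came with 1 array left out, with immature 2 and diestrus 2 left out, or with diestrus 3 left out as well, where the lone diestrus array was assumed to vary like the other groups. Over these settings estrus minus immature spanned -0.82 to 0.125 for Inhba, -0.265 to 0.12 for Amh, -0.18 to 0.066 for Fshr, -0.055 to 0.125 for Star, -0.17 to 0.22 for Cyp11a1 and -0.44 to 0.85 for Cyp17a1. Diestrus minus immature spanned -1.001 to 0.54 for Inha, -0.54 to 0.41 for Inhba, -0.34 to 0.04 for Amh, -0.15 to 0.11 for Fshr, -0.84 to 0.90 for Cyp17a1 and -0.15 to 2.32 for Akr1c18. Diestrus minus estrus spanned -0.42 to 1.04 for Inha, -0.29 to 0.026 for Amh, -0.028 to 0.065 for Fshr and -0.90 to 0.54 for Cyp17a1.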
